A study of Danio rerio with 12 samples.

Results

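The comparison described here set cells sorted for an endothelial reporter from zebrafish (Danio rerio) embryos injected with miR-126 MO-1 against the same sorted population of control embryos. MO-1 is a morpholino, a synthetic antisense oligonucleotide, that blocks processing of the precursor of the microRNA miR-126. It was injected at the one-cell stage at 4 ng per embryo. All embryos carried the transgene flk1:GFP, in which the promoter of the VEGF receptor gene flk1 (kdrl) drives green fluorescent protein in endothelium, and fluorescent cells were isolated on a flow sorter when embryos were 48 hours old. The arrays were chosen by their titles, MO-1 replicates 1 to 4 and control replicates 1 to 4, which makes 8 of the 12 arrays of the series, and arrays of the same number were compared as pairs. The labels call control replicate 1 uninjected and mention no injection for control replicates 2, 3 and 4. No control oligonucleotide is named, so the effect of MO-1 and that of being injected cannot be told apart. The study asked which genes miR-126 regulates in vessels of the living embryo.

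MicroRNAs are short RNAs that guide Argonaute proteins to messenger RNAs and lower their stability and translation. miR-126 is made in endothelial cells from an intron of the vascular gene egfl7. In zebrafish and mice it is known for holding down Spred1 and PIK3R2, which restrain the Ras-ERK and PI3K-AKT branches of VEGF signalling, and loss of miR-126 is known to weaken vessel walls. Levels of miR-126, egfl7 and pik3r2 were not analysed here, so the array values do not check how far MO-1 removed the microRNA.

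Signals are deposited log2 values from Affymetrix zebrafish arrays, on the scale of Robust Multi-array Average (RMA). The 8 arrays had medians from 6.79 to 6.85 and correlated pairwise at 0.957 to 0.992. Of 15502 probe sets tested, 10795 had 1 gene symbol, and they stood for 8793 genes, each given by its probe set of highest mean signal. The signal of the 3' end over the 5' end of a control transcript is a measure of RNA integrity and amplification. Averaged over 2 control transcripts, it differed between groups by -0.02 log2 (SD of pair differences 0.14, n = 4 pairs, exact two-sided permutation p = 0.75, where 4 pairs cannot go below 1 in 8). The 2 transcripts went opposite ways, acta1 by -0.15 (SD 0.34) and GAPDH by 0.11 (SD 0.47), so their average varied less than either. Values of 4 arrays are given below in the order of replicates 1 to 4, differences are MO-1 minus control on the log2 scale, and SE and 95% interval are those of the paired limma fit. The labels speak of biological replicates, but they do not say what the replicate number stands for.

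Arrays numbered 4 stood apart in their endothelial content. A score over 12 pan-endothelial genes, which averages each gene's departure from its own 8-array mean, was 0.23, 0.26, -0.07 and -0.61 in the controls and 0.21, 0.56, 0.64 and -1.23 with MO-1. The receptor gene kdrl, whose promoter drives the sorted fluorescence, had signals of 7.64, 7.46, 7.57 and 6.36 in controls and of 7.63, 8.11, 7.78 and 5.82 with MO-1. Both replicate 4 arrays were the lowest of their group for kdrl, and MO-1 replicate 4 was the lowest of all 8 for the list. The sorted population also held RNA of other cell types in both groups: signals well over the array medians were found for lyz of myeloid cells (13.22 to 13.56), mylpfa of fast muscle (9.79 to 12.69), krt4 of epidermis (11.47 to 12.19), elavl3 of neurons (8.72 to 11.55) and ins of pancreatic beta cells (7.91 to 11.09). By mean signal lyz lay at the 100th percentile of probe sets and mylpfa and krt4 at the 99th. The endothelial genes kdrl and fli1 lay at the 60th and 84th, although such percentiles do not measure shares of cells. In such a bulk measurement, fewer cells of a type and less RNA per cell cannot be told apart.

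**Figure D1:**
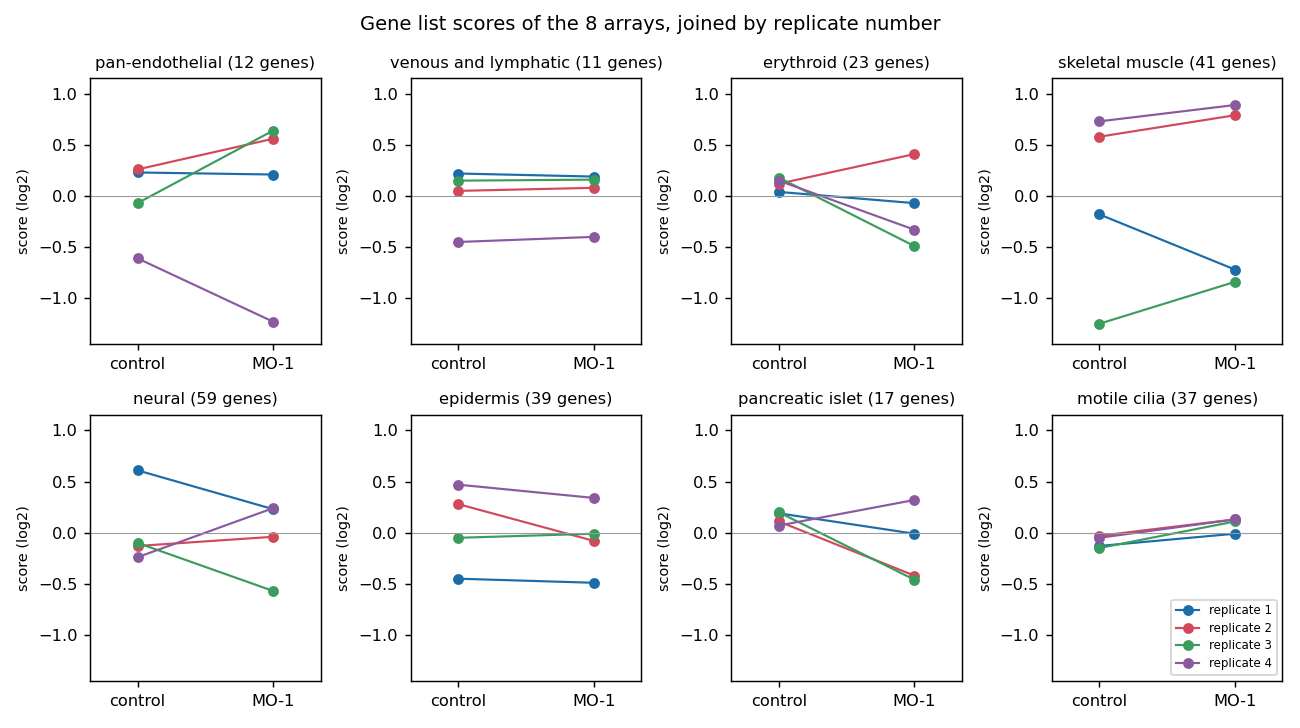
Scores of 8 gene lists (vertical axis, log2, the average departure of the list's genes from their own 8-array means) in the 4 control and 4 MO-1 arrays, with arrays of the same replicate number joined and coloured alike. The skeletal muscle score varied most between replicate numbers, from -1.25 to 0.89, the pan-endothelial score was lowest in the replicate 4 arrays, and the motile cilia score was higher with MO-1 in 4 of 4 pairs.

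No gene passed the test between the MO-1 and control sorts, which held RNA of other cell types besides endothelium. In limma's paired fit with Benjamini-Hochberg adjustment over 15502 probe sets, 0 were called higher and 0 lower at an adjusted p under 0.05 (0% of those tested), and the lowest adjusted p was 0.999. At an unadjusted p under 0.05 there were 474 probe sets (3.06%), 262 higher and 212 lower. A share of about 0.05 would fall there if no probe set differed. The median SE was 0.15. The 95% interval of each probe set, not adjusted for their number, lay within 1 log2 unit (2-fold) of 0 for 15315 (98.8%). It lay within 1.5-fold for 12413 (80.1%). Such intervals bound array signal in the mixed sorts, and which dim probe sets lay above background is not known. The 187 probe sets with wider or shifted intervals were not bounded in this way. Leaving out replicate 1 gave the lowest adjusted p of any setting tried, 0.054 for the fibrinogen gene fga.

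The 4 pair differences had little in common across the transcriptome. Between pairs, the differences correlated across probe sets at -0.21 to 0.08 (Pearson, 6 pairings of pairs, probe sets not being independent). Pair 3 differed most: 541 probe sets (3.49%) were apart by at least 1 log2 unit, 390 of them lower with MO-1, against 84 (0.542%) in pair 1, 189 (1.22%) in pair 2 and 156 (1.01%) in pair 4. The direction was the same in 4 of 4 pairs for 1568 probe sets (10.1%), 970 higher (6.26%) and 598 lower (3.86%), and for 923 genes (10.5%), 591 higher (6.72%) and 332 lower (3.78%). If nothing differed, random signs of 4 independent pairs would agree more often than the 10.1% and 10.5% seen. A constant direction over 4 pairs therefore does not by itself mark a gene as changed. Control and MO-1 values did not overlap for 150 probe sets (0.968%) and 84 genes (0.955%). Of these genes 55 were higher (0.625%) and 29 lower (0.33%). The share without overlap that would arise by chance was not computed, so a lack of overlap is a description too. The mean difference reached 1 log2 unit upward for 0 probe sets and downward for 7 (0.0452%), of which the named ones belonged to fga, ins, tfa, hbbe2 and hbae3, the last by a probe set other than that of highest signal. Of the 7, 5 (0.0323% of those tested) were also lower in 4 of 4 pairs, fga and ins being the exceptions.

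Direction went with signal. Over all genes 56.2% were higher with MO-1 and 43.8% lower, and the median difference was 0.02. Genes were divided by mean signal into 4 classes of equal size. In the lowest class 74.6% were higher, with medians of -0.02, -0.01, 0.21 and 0.16 in pairs 1 to 4, while in the highest class 39% were higher, with medians of 0.05, 0.01, -0.09 and -0.07. Pairs 3 and 4 thus carried the tilt toward higher values of dim genes. Its part in the results on dim genes below was not tested.

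Genes described as miR-126 targets, mostly from work in mammals, showed no difference beyond the spread of pairs. Of 28 listed genes 13 were measured, and pik3r2 and vcam1 were not among them. Of the 13, 8 were higher and 5 lower with MO-1, the median was 0.07 against 0.02 over all genes, and pair medians were 0.12, 0.23, -0.13 and 0.05. Spred1, an inhibitor of Ras-ERK signalling, is a target known from zebrafish vessels. Signals of spred1 were 7.58, 7.46, 7.72 and 7.28 in controls and 7.57, 7.67, 7.35 and 7.72 with MO-1, a difference of 0.07 (SE 0.16, 95% interval -0.29 to 0.43, adjusted p = 0.999). The pairs pointed both ways, with -0.01, 0.20, -0.37 and 0.44, and the groups overlapped. The other 3 probe sets of spred1 differed by -0.01, -0.32 and 0.14, so a rise of messenger RNA was not detectable here, and protein was not measured.

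The member of the target list with the largest consistent difference was hoxa9b, a homeobox transcription factor gene whose mammalian relative HOXA9 is a described target. It had signals of 5.74, 5.86, 5.41 and 5.31 in controls and 5.87, 5.98, 5.86 and 5.97 with MO-1, with no overlap, although the highest control and the lowest MO-1 value both round to 5.86. The difference was 0.34 (SE 0.15, adjusted p = 0.999), with pairs of 0.13, 0.13, 0.45 and 0.66. It was the only target with a constant direction, 1 of 13 against 10.5% of all genes, and its signal lay at the 29th percentile, among the dim genes described above. Adaptor and receptor substrate genes of growth factor signalling showed no common direction: crk differed by 0.07, crkl by 0.01 and irs2a by -0.30, the last with pairs from -1.27 to 0.26. The ligands vegfaa (-0.21, pairs -0.95 to 0.24), cxcl12a (-0.13) and cxcl12b (0.10, pairs -0.92 to 0.79) scattered likewise.

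**Figure D2:**
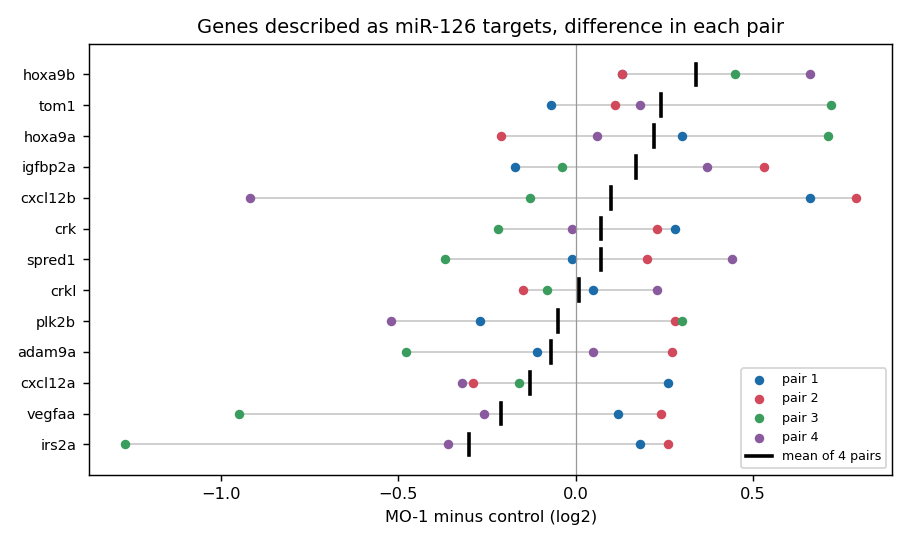
MO-1 minus control (horizontal axis, log2) for the 13 measured genes described as miR-126 targets, with 1 point per same-numbered pair and a bar at the mean of the 4 pairs. For 12 of the 13 genes the pairs lie on both sides of 0, and hoxa9b lies above 0 in all 4.

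The branches of VEGF signalling that spred1 and pik3r2 restrain were examined through their own genes. Of 34 measured genes of the Ras-ERK pathway and its feedback, 11 were higher and 23 lower, with a median of -0.05 and pair medians of 0.02, -0.07, -0.19 and 0.12. Feedback and target genes of ERK did not share 1 direction. Lower on average were etv4 (-0.30, pairs 0.14, -0.75, -0.38 and -0.23), dusp2 (-0.28), dusp1 (-0.17, lower in 4 of 4 pairs), dusp4 (-0.13) and dusp5 (-0.06). The genes spry2 (-0.00), il17rd (-0.01) and etv5a (-0.04) lay near 0, and dusp7 (0.06) and egr2b (0.31) were higher on average. The gene spry4, which encodes a Sprouty inhibitor, had signals of 9.37, 9.53, 9.55 and 9.39 in controls and 9.60, 8.94, 8.51 and 8.90 with MO-1, a difference of -0.47 (SE 0.20, adjusted p = 0.999). MO-1 replicates 2, 3 and 4 lay below all controls and MO-1 replicate 1 lay above them. The ERK phosphatase gene dusp6 differed by -0.18 (SE 0.14, pairs 0.08, -0.32, -0.18 and -0.30), and etv5b, an ETS factor gene downstream of ERK, by -0.34 (SE 0.20, pairs 0.12, -0.22, -1.11 and -0.17). The genes spry4, dusp6 and etv5b had a slightly higher value in pair 1 and lower values in pairs 2, 3 and 4. The AP-1 gene fosl2 was lower in 4 of 4 pairs, by -0.45 on average (SE 0.18, pairs -0.05, -0.29, -1.04 and -0.41). Other probe sets of fosl2 differed by -0.24, with pair 2 at 0.04, and by -0.35, with pair 1 at 0.16. The gene ptpn11b, which encodes an SHP2 phosphatase, was higher in 4 of 4 pairs by 0.23 (SE 0.13). Genes of constant direction made up 8.82% of the Ras-ERK list, against 10.5% of all genes.

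For PI3K-AKT, 7 of 19 measured genes were higher and 12 lower, with pair medians of 0.00, -0.08, -0.00 and 0.07 and a median of -0.06 that became 0.03 without replicate 2 and -0.15 without replicate 4. The list score was 0.10, 0.02, 0.01 and 0.02 in controls and 0.07, -0.07, -0.13 and -0.02 with MO-1, lower in 4 of 4 pairs, with differences of -0.04, -0.09, -0.15 and -0.05, while 10, 8, 9 and 10 of the 19 genes were higher in pairs 1 to 4. The regulatory subunit gene pik3r1 differed by -0.23 (SE 0.17) and its relative pik3r3a by -0.34 (SE 0.21), both with pairs on either side of 0. The kinase gene gsk3ab, whose product AKT inhibits, was the 1 member with a constant direction, at -0.16 (SE 0.13). That is 5.26% of the list, against 10.5% of all genes.

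Genes of microRNA processing had the lowest median of the 30 lists, at -0.19, with pair medians of 0.03, -0.23, -0.47 and -0.06. Only 8 of the 21 listed genes were measured, and none of the listed Argonaute genes was among the 8. The gene of the nuclease that cuts precursors in the cytoplasm, dicer1, had signals of 7.43, 7.57, 7.69 and 7.50 in controls and 7.28, 7.36, 6.94 and 7.36 with MO-1. Every MO-1 value of dicer1 lay below every control value, with a difference of -0.31 (SE 0.15, 95% interval -0.65 to 0.03, adjusted p = 0.999), which places it among the 0.33% of genes with no overlap downward. The helicase genes ddx5 (-0.33, SE 0.15) and ddx17 (-0.46, SE 0.22), whose products assist the nuclear step, and ddx6 (-0.34, SE 0.17), which acts in repression, were lower in pairs 2, 3 and 4 but not in pair 1. The nuclear nuclease gene drosha (0.21, SE 0.17) and its partner gene dgcr8 (0.05, SE 0.18) had pairs on both sides of 0.

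Endothelial identity genes did not share a direction over the pairs. Of 34 listed pan-endothelial genes 12 were measured, and cdh5 was not among them. Of the 12, 10 were higher on average and 2 lower, with a median of 0.14. Pair medians were -0.06, 0.36, 0.84 and -0.44, and 0 genes kept their direction over 4 pairs, against 10.5% of all genes. All 12 were lower in pair 4 and 11 of 12 were higher in pair 3. Without replicate 4 the median was 0.34 and without replicate 3 it was -0.09. The kdrl difference was 0.08 (SE 0.19), that of the ETS factor gene fli1 0.06 (SE 0.17), with another probe set of fli1 at -0.08, and that of plvapb, a gene of endothelial fenestrae, 0.16 (SE 0.26). The plvapb signals were 8.85, 9.04, 8.65 and 7.28 in controls and 8.74, 9.69, 9.61 and 6.42 with MO-1, a wider range among MO-1 arrays than among controls.

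Arterial and Notch genes were lower for 15 of 23 and higher for 8, with a median of -0.08 and pair medians of 0.07, 0.01, -0.30 and -0.17. The arterial ligand gene efnb2a differed by -0.07 (SE 0.15), the Notch target hey2 by -0.12 (SE 0.14) and the receptor gene notch1b by 0.05 (SE 0.13). The modifier of Notch receptors lfng was the member higher in 4 of 4 pairs, at 0.31 (SE 0.15, pairs 0.11, 0.77, 0.19 and 0.17). A constant direction was held by 4.35% of this list, against 10.5% of all genes. Venous and lymphatic genes had a median of 0.01 over 11 genes, with 7 higher and 4 lower. Among them mafbb, a gene for a Maf transcription factor of lymphatic and myeloid cells, had signals of 7.15, 7.42, 7.54 and 7.58 in controls and 7.67, 8.15, 8.22 and 7.64 with MO-1. The 4 MO-1 values of mafbb lay above the 4 controls, by 0.50 on average (SE 0.16, 95% interval 0.15 to 0.84, adjusted p = 0.999). The hyaluronan receptor gene lyve1a was lower in 4 of 4 pairs by -0.28 (SE 0.13, pairs -0.33, -0.26, -0.23 and -0.30), and prox1a, the lymphatic master regulator, differed by -0.38 (SE 0.17) with pair 4 above 0. The lymphatic markers thus had means on both sides of 0.

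Genes that blood flow regulates in endothelium had a median of -0.06 over 9 genes, 3 higher and 6 lower, which was 0.10 without replicate 2 and 0.05 without replicate 3. The flow-induced factor gene klf2a differed by 0.24 (SE 0.18, pairs -0.02, 0.53, 0.67 and -0.22), the same order of pairs as the pan-endothelial genes. Its copy klf2b differed by -0.01 (SE 0.16). Vessel guidance genes were lower for 21 of 29 with a median of -0.06, which was 0.01 without replicate 3. The semaphorin receptor gene plxnd1 differed by -0.03 (SE 0.16), or 0.01 after quantile normalization, and sema3aa, a repulsive ligand gene, by -0.34 (SE 0.17), lower in 4 of 4 pairs.

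Junction and adhesion genes were lower for 22 of 36, with a median of -0.11 and pair medians of 0.06, -0.16, -0.27 and -0.06. The small GTPase gene rhoab, which encodes a RhoA protein that governs actin tension at junctions, had signals of 9.55, 9.36, 9.43 and 9.35 in controls and 9.31, 8.59, 8.93 and 8.89 with MO-1. All MO-1 values of rhoab were below all control values, a difference of -0.49 (SE 0.14, 95% interval -0.81 to -0.17, adjusted p = 0.999). The related gene rap1b, whose product stabilizes endothelial contacts, was lower in 4 of 4 pairs by -0.19 (SE 0.13). The tight junction gene cldn5a differed by 0.04 (SE 0.13) and the connexin gene gja1b by 0.10 (SE 0.17), so the list did not have 1 direction. Basement membrane and integrin genes had a median of -0.04 over 19 genes, or 0.05 without replicate 3, and the laminin gene lama4 was higher in 4 of 4 pairs by 0.15 (SE 0.13). BMP and TGF-beta genes were higher for 18 of 28 with a median of 0.07. Their target id1 differed by 0.17 (SE 0.20), the endothelial receptor gene acvrl1 by 0.02 (SE 0.15) and the inhibitor gene smad6a by 0.25 (SE 0.15), each with pairs on both sides of 0. The largest difference of this list was that of the ligand gene tgfb1a, at -0.53 (pairs 0.25, -0.93, -1.06 and -0.39).

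**Figure D3:**
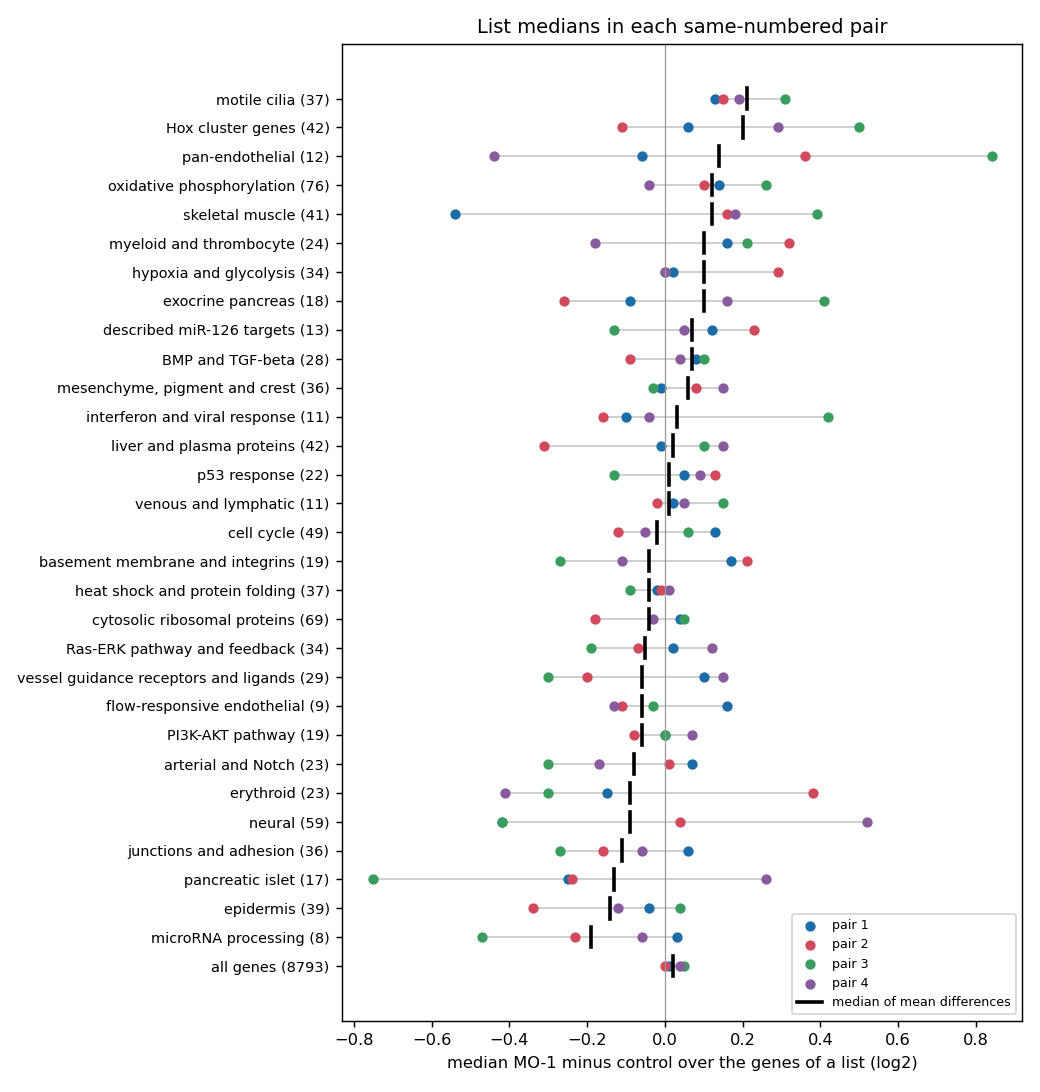
Median MO-1 minus control over the measured genes of 30 lists and of all genes (horizontal axis, log2; the number of genes is in brackets), with 1 point per same-numbered pair and a bar at the median of the mean differences. Motile cilia genes lie above the all-gene median in 4 of 4 pairs, and epidermal and heat shock genes lie below it in 4 of 4, while the other 27 lists do not keep 1 side. The Hox cluster list was added after values were seen, and the other lists were chosen with earlier results of these data known.

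Large differences with MO-1 were found in genes of hepatocytes, which are not endothelial, and the largest mean difference of any probe set was that of fga. This gene, fibrinogen alpha, had signals of 5.31, 5.23, 7.28 and 7.51 in controls and 5.33, 3.69, 4.58 and 5.27 with MO-1, a difference of -1.62 (SE 0.35, 95% interval -2.41 to -0.82, adjusted p = 0.999). Transferrin, tfa, had 6.46, 7.20, 8.24 and 8.27 in controls and 6.38, 5.52, 5.41 and 7.28 with MO-1, a difference of -1.39 (SE 0.35). In both genes pairs 2, 3 and 4 were lower with MO-1 by about 1 log2 unit or more and pair 1 hardly differed, with 0.02 for fga and -0.07 for tfa. Without replicate 1 the differences were -2.16 for fga (SE 0.23, adjusted p = 0.054) and -1.83 for tfa (SE 0.30, adjusted p = 0.46), still not past the threshold. Pair 1 was the pair that hardly differed, so leaving it out enlarges the mean difference. Without replicate 4 the differences were -1.41 for fga and -1.53 for tfa.

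Some other plasma protein genes had lower values too, by amounts that differed between pairs. The fibrinogen chain genes fgb (-0.89, SE 0.22) and fgg (-0.97, SE 0.28) had pairs of -0.14, -0.83, -1.70 and -0.90 and of -0.01, -1.50, -1.93 and -0.44. Apolipoprotein A-II, apoa2, had 7.13, 7.40, 8.62 and 8.04 in controls and 6.97, 6.69, 6.87 and 7.24 with MO-1, a difference of -0.85 (SE 0.22). The liver fatty acid binding protein gene fabp10a, a marker of zebrafish hepatocytes, had 6.62, 7.03, 7.18 and 8.41 in controls and 6.39, 6.42, 6.66 and 7.68 with MO-1, a difference of -0.52 (SE 0.14). The groups overlapped in each of these genes although the direction was the same in 4 of 4 pairs, since the controls themselves spread widely, with replicates 1 and 2 below replicates 3 and 4 for apoa2 and fabp10a.

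The liver list as a whole did not share this. Of 42 measured genes 22 were higher and 20 lower, and the median was 0.02, or -0.01 after quantile normalization and -0.06 without replicate 3 or without replicate 4. In 4 of 4 pairs 7 of the 42 were lower and 3 higher, against 3.78% and 6.72% of all genes. In the lowest signal class 16 of 20 liver genes were higher, and in the second 11 of 15 were lower. The 3 that were higher throughout were apoc1 (0.40), vtg3 (0.30) and apoa4b.1 (0.11). Among controls alone the hepatocyte marker fabp10a ranged from 6.62 to 8.41, and the part of hepatocyte content in the differences of liver genes was not tested.

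**Figure D4:**
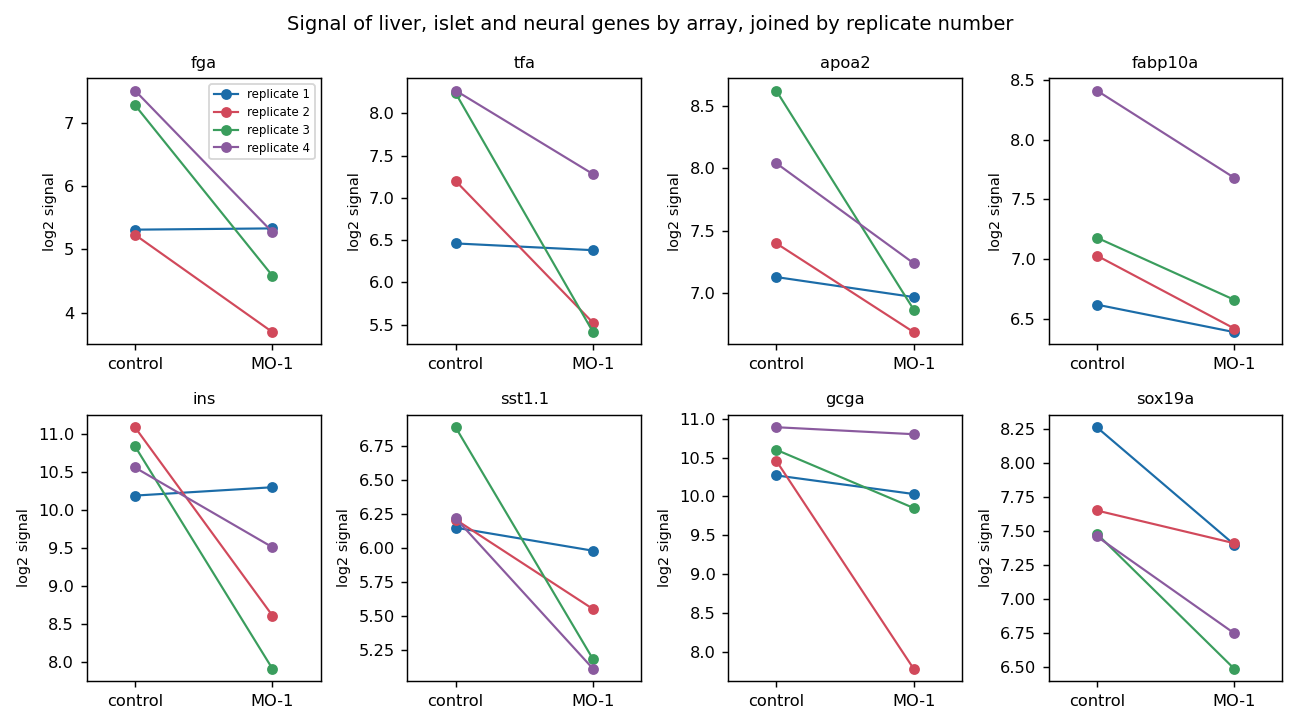
Log2 signal (vertical axis, own scale for each gene, not starting at 0) of the liver genes fga, tfa, apoa2 and fabp10a, the islet genes ins, sst1.1 and gcga and the neural gene sox19a in the 4 control and 4 MO-1 arrays, joined by replicate number. The lines of pair 1 are nearly flat for fga, tfa, apoa2 and ins, and every line of sst1.1, gcga and sox19a falls.

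Hormone genes of the pancreatic islet were lower with MO-1 in part. Insulin, ins, had signals of 10.19, 11.09, 10.84 and 10.56 in controls and 10.30, 8.61, 7.91 and 9.51 with MO-1, a difference of -1.59 (SE 0.41, 95% interval -2.50 to -0.68, adjusted p = 0.999). Again pair 1 did not move (0.10) while pairs 2, 3 and 4 gave -2.48, -2.93 and -1.04. The difference was -2.15 without replicate 1 (SE 0.31, adjusted p = 0.345) and -1.77 without replicate 4. Somatostatin 1, sst1.1, had 6.15, 6.21, 6.89 and 6.22 in controls and 5.98, 5.55, 5.18 and 5.11 with MO-1, with no overlap and a difference of -0.91 (SE 0.22). Glucagon, gcga, was lower in 4 of 4 pairs by -0.94 (SE 0.36), of which pair 2 gave -2.68. A further somatostatin gene, sst2, ran from 1.76 in pair 1 to -2.82 in pair 2, with a mean of -0.12 (SE 0.55).

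Across the 17 islet genes 6 were higher and 11 lower, with a median of -0.13 and pair medians of -0.25, -0.24, -0.75 and 0.26. Exocrine pancreas genes were higher for 14 of 18 with a median of 0.10, or -0.01 without replicate 3, and their median signal of 5.67 fell in the lowest class. The trypsin gene prss1 was lower in 4 of 4 pairs by -0.47 (SE 0.16) and the chymotrypsin gene ctrb.2 higher by 0.25 (SE 0.14), so the exocrine list went both ways.

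Blood cell genes went both ways between pairs. Of 23 erythroid genes 16 were lower and 7 higher, with a median of -0.09 and pair medians of -0.15, 0.38, -0.30 and -0.41. The embryonic beta globin gene hbbe2 had signals of 10.13, 9.60, 10.19 and 9.79 in controls and 9.30, 9.36, 7.59 and 9.24 with MO-1. All MO-1 values of hbbe2 were below the controls, with a difference of -1.05 (SE 0.32, adjusted p = 0.999), and pair 3 alone gave -2.60. The alpha globin gene hbae3, by its probe set of highest signal (-0.92, SE 0.40), and the haem synthesis gene alas2 (-0.75, SE 0.38) were also lowest in MO-1 replicate 3, with pair differences of -2.88 and -1.98, and were higher in pair 2. Another probe set of hbae3, the one counted above among those lower by at least 1 log2 unit, differed by -1.14 and was lower in pair 2 as well (-0.29).

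Myeloid and thrombocyte genes were higher for 17 of 24, with a median of 0.10 and pair medians of 0.16, 0.32, 0.21 and -0.18, and the median was 0.22 without replicate 4. Of these, 5 were higher in 4 of 4 pairs and 0 lower, against 6.72% and 3.78% of all genes. The neutrophil myeloperoxidase gene mpx had 8.80, 10.04, 9.27 and 8.96 in controls and 9.85, 10.08, 9.84 and 9.15 with MO-1, a difference of 0.46 (SE 0.18), and its other probe sets differed by 0.57, 0.50 and 0.07, the last at a mean signal of 3.71. The granulocyte factor gene cebp1 (0.34, SE 0.14), the L-plastin gene lcp1 (0.31, SE 0.14) and the macrophage receptor gene csf1ra (0.15, SE 0.14) were also higher in each pair, with overlapping groups. The lysozyme gene lyz differed by 0.06 (SE 0.14) and the myeloid master regulator spi1b by 0.26 (SE 0.17), both with pairs on both sides of 0.

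Neural, muscle and skin genes varied more between the arrays of a group than between groups. Of 59 neural genes 27 were higher and 32 lower, and pair medians ran from -0.42 in pairs 1 and 3 to 0.52 in pair 4. The list median of -0.09 became 0.04 without replicate 1 or without replicate 3. The SoxB1 factor gene sox19a, expressed in neural progenitors, stood out with signals of 8.26, 7.65, 7.48 and 7.46 in controls and 7.40, 7.41, 6.49 and 6.75 with MO-1. Its groups did not overlap and the difference was -0.70 (SE 0.16, 95% interval -1.06 to -0.35, adjusted p = 0.999). The related gene sox2 was also lower in 4 of 4 pairs, by -0.20 (SE 0.16, pairs -0.67, -0.08, -0.01 and -0.03), with other probe sets at 0.08 and 0.05. The neuronal gene elavl3 differed by -0.25 (SE 0.30), with pairs on both sides of 0, from -1.56 to 0.78. Of the 59 neural genes 2 were lower in each pair, sox19a and sox2, and 2 were higher in each, against 3.78% and 6.72% of all genes.

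The skeletal muscle score ranged from -1.25 in control replicate 3 to 0.89 in MO-1 replicate 4 and followed the replicate number. The muscle list median was 0.12 over 41 genes, or -0.05 without replicate 3, with the fast muscle gene mylpfa at -0.23 (SE 0.16). Epidermal genes were lower for 31 of 39, with a median of -0.14 and pair medians of -0.04, -0.34, 0.04 and -0.12. The basal keratin gene krt5 was lower in each pair, with signals of 7.43, 9.16, 7.66 and 10.69 in controls and 7.21, 8.77, 7.27 and 9.91 with MO-1, a difference of -0.44 (SE 0.15). The keratin gene krt4 differed by -0.09 (SE 0.14) and the basal factor gene tp63 by -0.09 (SE 0.15). Genes of mesenchyme, pigment cells and neural crest were higher for 21 of 36 with a median of 0.06. The cartilage collagen gene col2a1a was lower in 4 of 4 pairs by -0.58 (SE 0.23), of which pair 1 gave -1.57, and prrx1a, a gene of limb and fin mesenchyme, was higher in 4 of 4 by 0.35 (SE 0.15).

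Genes of motile cilia, the beating organelles of kidney tubules, ependyma and other epithelia, had 1 direction in the medians of all 4 pairs. Of 70 listed genes 37 were measured, and the anchors foxj1a and foxj1b were not among them. The list also held genes of transport along the cilium, such as ift52. Of the 37, 33 were higher with MO-1 and 4 lower, with a median of 0.21 (0.16 after quantile normalization) against 0.02 over all genes. The pair medians were 0.13, 0.15, 0.31 and 0.19. The list score was -0.13, -0.03, -0.15 and -0.05 in controls and -0.01, 0.13, 0.11 and 0.13 with MO-1, so that the MO-1 arrays lay above all controls. The direction was constant upward for 7 of the 37 and downward for 0, and 4 of the 37 had no overlap, against 6.72%, 3.78% and 0.955% of all genes. None of the 37 passed the test, with 5 at an unadjusted p under 0.05.

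The consistent cilia genes had small differences. The transport gene ift52, whose product carries cargo along the cilium, had signals of 6.91, 6.77, 6.82 and 6.80 in controls and 7.13, 7.19, 7.49 and 7.15 with MO-1, a difference of 0.42 (SE 0.14, 95% interval 0.10 to 0.73, adjusted p = 0.999). The radial spoke gene rsph1 had 7.05, 7.13, 7.24 and 7.34 in controls and 7.44, 7.76, 7.35 and 7.77 with MO-1, a difference of 0.39 (SE 0.14). The gene efhc2, which encodes a protein of the doublet microtubules, had 5.03, 4.75, 4.86 and 4.97 against 5.11, 5.28, 5.36 and 5.48, a difference of 0.41 (SE 0.14). These 3 genes and ccdc39 (0.27, SE 0.13), a gene of the axonemal ruler, made up the 4 with no overlap, and cfap298, capsla and dnaaf4 were also higher in each pair, by 0.27, 0.33 and 0.23. The axonemal gene tekt1 differed by 0.21 (SE 0.14) with pair 1 at -0.07.

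Cilia genes were mostly dim, and the tilt of dim genes lies in the same direction in pairs 3 and 4. In the lowest signal class 15 of 15 cilia genes were higher, as were 74.6% of all genes there. In the second class it was 10 of 12 against 61%, in the third 8 of 8 against 50.4%, and in the highest 0 of 2 against 39%. From the lowest class to the highest, 1 of 15, 5 of 12, 1 of 8 and 0 of 2 cilia genes were higher in 4 of 4 pairs. The shares of all genes there were 9.96%, 6.19%, 6.32% and 4.41%. In pairs 1 and 2, where the lowest class of all genes had medians of -0.02 and -0.01, the cilia medians were 0.13 and 0.15. The part of the dim-gene tilt in the cilia values was not tested. The gene with the smallest p upward, pierce1, which was not on the list, also encodes a protein of ciliary doublet microtubules. It was singled out by its p in these same data, so it gives the list no separate support. The cilia list itself was chosen with earlier results of these data known, so its values are a description.

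**Figure D5:**
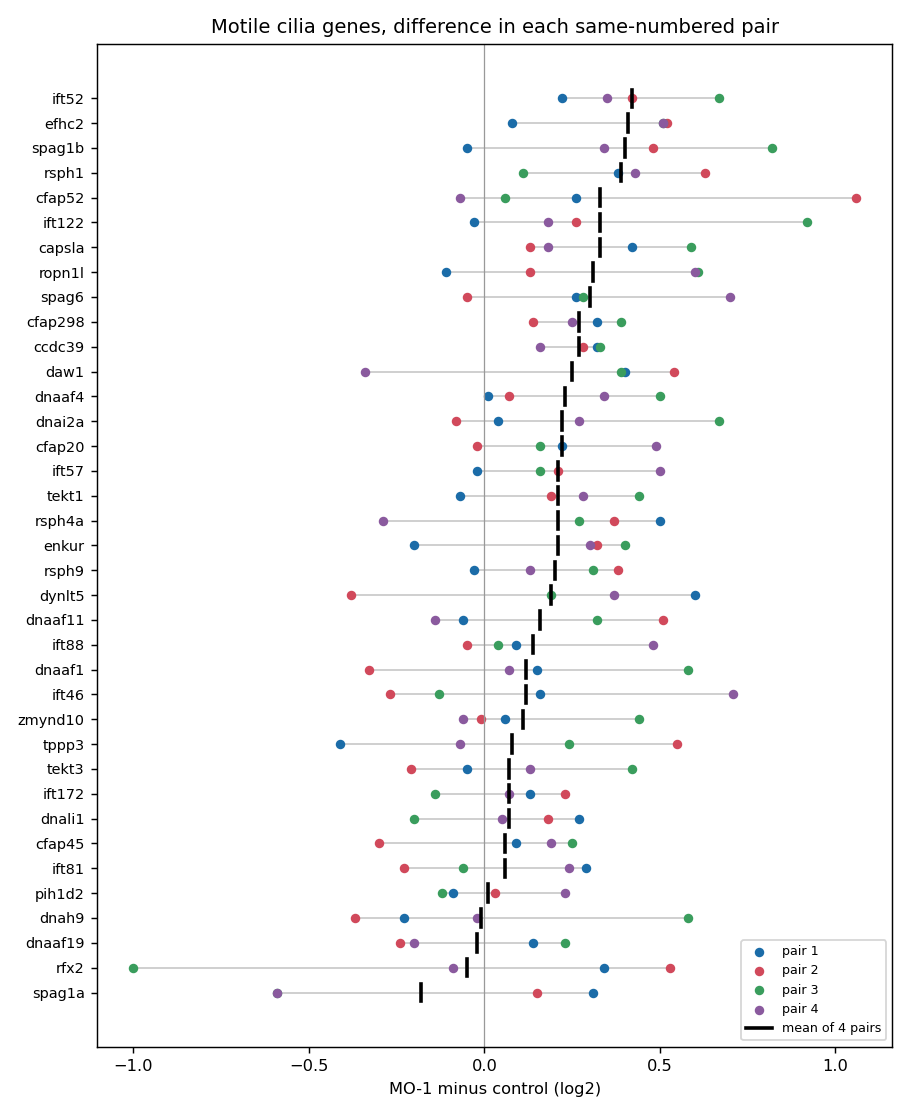
MO-1 minus control (horizontal axis, log2) for 37 measured motile cilia genes, with 1 point per same-numbered pair and a bar at the mean of the 4 pairs. The bars of 33 genes lie above 0, and 7 genes, among them ift52, efhc2 and rsph1, have all 4 points above 0.

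Genes of oxidative phosphorylation, the respiratory chain and ATP synthase of mitochondria, were also mostly higher. Of 76 genes 63 were higher and 13 lower, with a median of 0.12 and pair medians of 0.14, 0.10, 0.26 and -0.04. The direction was constant upward for 19 (against 6.72% of all genes) and downward for 1 (against 3.78%), with 0 free of overlap between groups (against 0.955%). Of the 76, 69 lay in the highest signal class, where 60 were higher with a median of 0.13 while all genes of that class had -0.04. The ATP synthase gene atp5md had signals of 9.85, 10.22, 9.87 and 10.59 in controls and 10.26, 10.36, 10.51 and 10.79 with MO-1, a difference of 0.34 (SE 0.14). Complex I genes such as ndufc1 (0.34), ndufa3 (0.29) and ndufv2 (0.29) were higher in each pair as well. The 1 gene lower throughout was cox4i2, the alternative cytochrome oxidase subunit of lung and hypoxia in mammals, at -0.47 (SE 0.16, pairs -0.10, -0.22, -0.82 and -0.76). Scores also differed between the arrays of a group, from -0.34 to 0.27 among the controls, which is more than the mean score difference of 0.10.

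Hypoxia and glycolysis genes were higher for 21 of 34, with a median of 0.10 to which pair 2 gave 0.29 and the other pairs -0.00 to 0.02. The glycolytic isomerase genes gpia (0.33, SE 0.14, no overlap) and gpib (0.36, SE 0.13) were higher in each pair. A gene of the HIF alpha family, hif1al2, had signals of 4.42, 4.67, 4.84 and 4.82 in controls and 4.16, 4.36, 3.80 and 3.88 with MO-1, with no overlap and a difference of -0.64 (SE 0.17), at the 11th percentile of signal. The glycolytic genes pgk1 (0.02, SE 0.13) and ldha (-0.03, SE 0.19) did not differ beyond their error. Cytosolic ribosomal protein genes were lower for 52 of 69 by a median of -0.04, or 0.02 without replicate 2, with rplp0 at 0.10 (SE 0.13) and rpl5b at -0.08 (SE 0.13).

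Stress lists, which matter because morpholinos are known to raise p53 and immune responses in zebrafish, showed no common direction. Of 22 p53 response genes 12 were higher and 10 lower, with a median of 0.01, or -0.01 without replicate 1. The p53 regulator mdm2 was higher in 4 of 4 pairs, with signals of 7.90, 7.80, 7.96 and 7.72 in controls and 8.04, 7.90, 8.28 and 8.0 with MO-1, a difference of 0.21 (SE 0.13, 95% interval -0.09 to 0.51). The p53 target rps27l (0.39, SE 0.16, pairs 0.16, 0.52, 0.79 and 0.08) and the death receptor gene fas (0.27, SE 0.14) were higher in each pair too, while plk3 was lower (-0.07). Of 11 interferon genes 6 were higher and 5 lower, with a median of 0.03, or -0.02 after quantile normalization and -0.11 without replicate 3. The interferon regulator irf7 differed by -0.23 (SE 0.15), the related irf5 by -0.29 (SE 0.15, lower in 4 of 4 pairs) and the ubiquitin-like gene isg15 by 0.03 (SE 0.16), or -0.03 after quantile normalization.

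Heat shock and folding genes had a median of -0.04 over 37 genes, 14 higher and 23 lower, which was 0.01 after quantile normalization and 0.03 without replicate 3. The small heat shock gene hspb8 was higher in each pair by 0.40 (SE 0.14), the cochaperone gene dnajb1b lower by -0.23 (SE 0.14), and the endoplasmic reticulum chaperone gene hspa5 differed by -0.16 (SE 0.15). Cell cycle genes had a median of -0.02 over 49 genes, 23 higher and 26 lower, or 0.03 without replicate 2 and 0.01 without replicate 4. The replication clamp gene pcna differed by -0.05 (SE 0.15), the topoisomerase gene top2a by -0.13 (SE 0.13) and the cyclin gene ccnb1 by 0.17 (SE 0.15), with MO-1 replicate 3 highest for ccnb1 at 8.92.

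Several of the 10 genes of smallest p upward are known from tissues other than endothelium. The smallest was that of pierce1, with signals of 5.82, 6.07, 5.92 and 5.50 in controls and 6.82, 6.94, 7.10 and 5.85 with MO-1, a difference of 0.85 (SE 0.16, 95% interval 0.49 to 1.21, adjusted p = 0.999). It was also the largest mean difference upward, and its groups overlapped only through MO-1 replicate 4, which lay below control replicates 2 and 3. Next came foxi1, a forkhead factor gene of ionocytes and the ear placode, with 7.10, 7.04, 6.22 and 6.0 in controls and 7.54, 7.56, 7.05 and 6.64 with MO-1, higher by 0.61 (SE 0.14) with pairs of 0.44, 0.52, 0.83 and 0.64. The sodium chloride cotransporter gene slc12a3, known from the kidney tubule, was higher by 0.71 (SE 0.18, pairs 0.87, 0.96, 0.98 and 0.03). Another probe set of slc12a3 differed by 0.43, with pair 4 at -0.30. The corneal proteoglycan gene kera (0.70, SE 0.18), the homeobox gene hoxd11a (0.53, SE 0.13) and the bile acid regulator nr0b2a (0.75, SE 0.21) were higher in each pair as well. A second probe set of nr0b2a differed by 0.63, with pair 3 at -0.05. Signals of kera and hoxd11a lay at the 14th percentile, among the dim genes described above.

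The remaining genes of smallest p upward were pdgfrl (0.51), si:ch73-359m17.9 (0.60), zgc:56235 (0.75) and trim109 (0.53), each higher in 4 of 4 pairs. For pdgfrl, zgc:56235 and si:ch73-359m17.9 another probe set had pairs on both sides of 0, with means of 0.11, 0.11 and 0.72. Downward, the 10 genes were fga, fgb, tfa, apoa2, ins, sst1.1 and sox19a, described above, and rgs5a, acss1 and dact2. The regulator of G protein signalling rgs5a, a gene of mural cells in mammals, had signals of 4.59, 4.45, 4.85 and 6.42 in controls and 3.87, 3.89, 4.62 and 5.49 with MO-1, a difference of -0.61 (SE 0.15), while a second probe set differed by 0.06. The mitochondrial acetyl-CoA synthetase gene acss1 differed by -0.61 (SE 0.16), with -0.20 in a second probe set, and dact2, which encodes a regulator of Wnt and TGF-beta signalling, by -0.61 (SE 0.16, pairs -0.19, -0.97, -0.84 and -0.43). None of these genes passed the test, and they were singled out by their p, so their sizes are a description.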

How the data were processed

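The authors deposited log2 signals of probe sets made with Robust Multi-array Average, per the submitters' processing notes. No RMA version is named in those notes, and log base 2 was taken from the range of the values. RNA was extracted with Trizol and amplified with NuGen WT-Ovation Pico, per the labels' protocols. The 115 control probe sets were left out, no filter was set, and 15502 probe sets entered limma 3.58.1 (R 4.3.3; lmFit, eBayes, two-sided, replicate number as a block, Benjamini-Hochberg, threshold 0.05). The fit had 9.69 degrees of freedom, and the number of arrays limits its precision.

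Gene names came from the platform annotation: 10795 had 1 symbol, 135 several and 4572 none. Symbols of 10718 were updated by Entrez number, which changed 1. The comparison and the gene lists were chosen with earlier results of these data known. Lists were described by counts and medians, with no set test.

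Same-numbered arrays correlated at 0.24 to 0.63 after group means were removed, other pairs at -0.51 to 0.08 (12 pairs), and each of the 8 arrays correlated best with its own number, so the numbers pair the arrays. Per gene, the probe set of highest mean signal was used. Genes named were spred1, the 10 of smallest p in each direction since none was called, anchor genes of each list, and 2 members per list with the largest difference among those of 1 direction in 4 pairs. Members beyond these were chosen after their values were seen. The 12 alternatives were no block, an intensity trend with a robust prior, array weights, renewed quantile normalization, median centring, dropping the lowest of 4 signal classes, 1 probe set per gene, gene means over probe sets for lists, and leaving out each pair.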

Additional observations from a re-analysis of the deposited data

Results flagged for a closer look

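In 18 of 290 groups of 4 arrays (6.21%), the highest or lowest array lay apart from the other 3 by more than Dixon's 95% critical share of the group's range. Chance alone flags about 1 in 20 such groups. The causes were not tested.

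Among the scores, control replicate 1 was high for PI3K-AKT genes (0.10, the others 0.01 to 0.02) and for neural genes (0.61, the others -0.24 to -0.10). Control replicate 4 was high for the p53 response (0.12, the others -0.05 to -0.04). MO-1 replicate 1 was low for motile cilia (-0.01, the others 0.11 to 0.13) and high for vessel guidance (0.27, the others -0.17 to -0.11).

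Among single genes, the replicate 4 arrays were low for endothelial genes: control replicate 4 for kdrl (6.36, the others 7.46 to 7.64) and for the lymphatic receptor gene flt4 (7.62, the others 8.17 to 8.27), and MO-1 replicate 4 for plxnd1 (9.43, the others 10.71 to 10.88). MO-1 replicate 4 was also low for otx1 (5.91, the others 6.03 to 6.04). MO-1 replicate 3 was low for hbbe2 (7.59, the others 9.24 to 9.36) and vegfaa (5.97, the others 6.76 to 6.91) and high for ccnb1 (8.92, the others 8.31 to 8.4). MO-1 replicate 1 was low for the erythroid factor gene klf1 (5.05, the others 5.37 to 5.43).

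Control replicate 1 was low for acvrl1 (5.97, the others 6.36 to 6.37) and col2a1a (11.17, the others 12.62 to 12.86). Control replicate 2 was low for pdgfrl (4.97, the others 5.64 to 5.71) and high for fas (6.24, the others 5.84 to 5.89). Control replicate 3 was high for sst1.1 (6.89, the others 6.15 to 6.22).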

How the results depend on the processing

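Under the 11 settings that refit the test, 0 probe sets were called in either direction. The count at an unadjusted p under 0.05 was 474 with the replicate block, 167 without it and 291 of 8793 with 1 probe set per gene, and leaving out each pair gave 363 to 582. The lowest adjusted p was 0.054 without replicate 1 and 0.841 or more in the other settings. The block changed no call. Of 113 named genes 20 changed sign in some setting, and of 30 lists 14 did. No named gene moved by more than the SD of its pair differences. Leaving out a pair cannot move a mean that far, so this limit does not measure how stable the genes were. Renewed quantile normalization moved the heat shock median to 0.01 and changed the sign of 3 lists. Leaving out a pair put the PI3K-AKT median between -0.15 and 0.03, that of flow-responsive genes between -0.16 and 0.10 and that of heat shock genes between -0.07 and 0.03. The causes were not tested. Detection calls were not used here, so which dim probe sets lay above background is not known.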

Other observations

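Genes of the Hox clusters, which set position along the body axis, were looked at after hoxd11a and hoxa9b had been seen, so the values are a description of a list chosen on these data. Of 42 measured Hox genes 38 were higher with MO-1 and 4 lower, with a median of 0.20 (0.17 after quantile normalization) against 0.02 over all genes. The pair medians were 0.06, -0.11, 0.50 and 0.29. The direction was constant upward for 8 genes, against 6.72% of all genes, and 6 of the 42 had no overlap between groups, against 0.625% of all genes upward: hoxa9b, hoxb1a, hoxb7a, hoxd4a, hoxd9a and hoxd11a. The gene hoxb1a had signals of 4.76, 4.82, 4.60 and 4.78 in controls and 5.38, 5.22, 5.12 and 5.12 with MO-1, a difference of 0.47 (SE 0.13, adjusted p = 0.999 in limma's paired fit). The gene hoxd9a had 6.13, 6.13, 5.43 and 5.40 in controls and 6.21, 6.26, 6.34 and 6.15 with MO-1, so that its difference of 0.47 (SE 0.17) came mainly from the lower controls 3 and 4. The list score was 0.09, 0.07, -0.33 and -0.24 in controls and 0.18, 0.02, 0.13 and 0.08 with MO-1.

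Many are dim: 21 of the 42 genes lay in the lowest of 4 signal classes, where 21 of 21 were higher, with 74.6% of all genes there. Pairs 3 and 4 were those in which all genes of that class had medians of 0.21 and 0.16. In the second class 12 of 14 Hox genes were higher (median 0.19; 61% of all genes), in the third 5 of 6 (median 0.29; 50.4% of all genes) and in the highest 0 of 1 (-0.09; 39% of all genes). The part of the dim-gene tilt in the Hox values was not tested.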
